A study of Mus musculus with 4 samples.

Results

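The genes described here encode 10 receptor chains through which myeloid growth factors and inflammatory cytokines act on blood cells: Csf1r, Csf2ra, Csf2rb, Csf2rb2, Csf3r, Il3ra, Il1r1, Il1rl1, Ifngr1 and Ifnar1. They were taken by symbol from the 28692 genes counted in every library, and each symbol matched 1 gene. The cells were single bone marrow HSPCs of male C57BL/6-CD45.2 mice, depleted of lineage-positive cells and sorted as Lin-Sca1+cKit+Flt3-, a gate that all groups shared. Young mice were 2-3 months old and aged mice 17-18 months old. Each age had a pool A, captured and sequenced at the HalioDX facility, and a pool B, from the TGML platform. Young A held 2 mice, young B 3, aged A 3 and aged B 2, and mice within a pool cannot be told apart, so the pool was the replicate (n = 2 per age). Letter and platform go together, which is why ages were compared within platforms. The paper gives fewer reads per cell for young A and aged B than for young B and aged A. Age and read depth thus differed together within each platform, in opposite directions on A and B.

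Cytokine receptors work as assemblies of chains. Csf2rb is the signalling beta chain shared by the receptors for GM-CSF, IL-3 and IL-5, while Csf2ra and Il3ra are the alpha chains that bind GM-CSF and IL-3, and the mouse carries a close copy, Csf2rb2, that pairs with the IL-3 alpha chain. Csf1r and Csf3r are the receptors for M-CSF and G-CSF, which drive monocyte and neutrophil production. Il1r1 binds IL-1 and Il1rl1 (ST2) binds IL-33, both with the accessory chain Il1rap. Ifngr1 with Ifngr2 forms the receptor for type II interferon, and Ifnar1 with Ifnar2 that for type I interferon.

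After the cell filter, 14915 of 15566 barcodes were kept, 2244 to 5189 per pool, with 16399999 to 36446168 UMIs per pool and a median of 5674 to 6719 UMIs per cell. The free-text descriptions of young B and aged A name the other age, and age was taken from titles and source names. Among the kept cells, 200 carried a barcode also present in another pool. Kit, a marker of the gate, stood at 71.7 to 164 CPM (UMIs scaled to a common library size) in each pool, and Flt3, which the gate excluded, still gave 2.4 to 48 CPM. Cells were grouped anew into 14 clusters without using the 10 receptor genes, and 10 of the clusters could be named from marker lists. Neutrophil-primed (pNeu-like) cells were led by Elane and Mpo, erythroid-primed (pEr-like) cells by Car1 and Klf1, and megakaryocyte-primed (pMk-like) cells by Pf4. In the pMast-like cells, the mast cell markers Fcer1a and Cpa3 came with the basophil proteases Prss34 and Mcpt8, which led the cluster. Replicating (rep-like), dividing (div-like) and interferon-response (ifn-like) cells were also named. Clusters 0, 1, 2 and 4 met no marker rule. Cluster 0 was led by Cldn5 and Ramp2 and cluster 1 by Flt3. Levels by class are given for the 11 classes with at least 10 cells in every pool.

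The 10 receptors were sparse. At least 1 UMI of any of them was seen in 75.7% of young A, 74.7% of young B, 73.3% of aged A and 70.7% of aged B cells, with a median of 1 receptor gene per cell. Ifngr1 was seen in 46.7 to 50.8% of the cells of a pool. Csf1r was at the other end, with 0.144 to 0.809%. These shares cover counting error only, and 3' UMI counts do not allow levels of different genes to be ranked.

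Csf2rb was the receptor with a called age difference. It reached 12.3 CPM in young A and 9.09 in young B against 4.57 in aged A and 2.04 in aged B, from 448, 149, 95 and 68 UMIs. Both aged pools lay below both young pools, where 31.8% of all genes tested had no overlap between ages in either direction. The same order was seen within each platform, with a difference in log2(CPM + 1) of -1.25 on A and -1.73 on B. Csf2rb fell by 1.83 on the log2 scale (SE 0.237, 95% interval -2.44 to -1.22, adjusted p = 0.0366 by edgeR's quasi-likelihood test over 13555 genes), which left 28.2% of the young level. It was the only receptor of the 10 called, where 2.03% of all genes tested were called in either direction and 0.428% as lower in aged. DESeq2 gave -1.87 with an adjusted p of 0.000703, in a fit that called 3.91% of its genes.

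The call rested on the comparison within platforms. Without the platform term the difference was -1.79 with an adjusted p of 0.259, and that fit called 0 of 13555 genes (1103 at an unadjusted p under 0.05). Leaving out any 1 pool, in fits that could then hold no platform term, gave -1.44 to -2.26 with adjusted p of 0.128 to 0.574. Those fits called 287 and 160 of all genes without young A and young B and 4 and 0 without aged A and aged B (966 and 1040 at an unadjusted p under 0.05). In summed pools, fewer cells of a type and less RNA per cell cannot be told apart, and the levels within cell classes are given further on.

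The other chains of this family were not called. Csf2rb2 stood at 2.66 and 1.59 CPM in young A and B and at 2.16 and 1.11 in aged A and B, from 26 to 97 UMIs, and the ages overlapped (log2 difference -0.45, 95% interval -1.36 to 0.46, edgeR adjusted p = 0.64). Csf2ra was at 27.4 and 27.5 CPM in young against 40.2 and 24.7 in aged pools. Aged A was the highest pool and aged B the lowest, so the estimate of 0.15 (95% interval -0.36 to 0.66) joined opposite directions on the platforms. Il3ra was at 27.0 and 24.2 CPM in young and at 20 and 20.2 in aged pools. Its groups did not overlap, as for 31.8% of all genes tested, and the log2 difference of -0.40 was not called (95% interval -0.85 to 0.05, edgeR adjusted p = 0.368).

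Csf2rb (chr15:78325752-78353847, plus strand, GRCm38) and Csf2rb2 (chr15:78282507-78305721, minus strand) lie head to head, 20030 bases apart. Of the 4851 windows of 50 bases in the transcript Csf2rb-206, 18.4% occur unchanged in Csf2rb2-201, and of the 551 windows in the last 600 bases, 0 do. These are letters of 1 transcript per gene, and the part of reads shared between the genes was not tested. With the counts of both genes summed, the log2 difference was -1.5 (edgeR adjusted p = 0.0448).

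**Figure D1:**
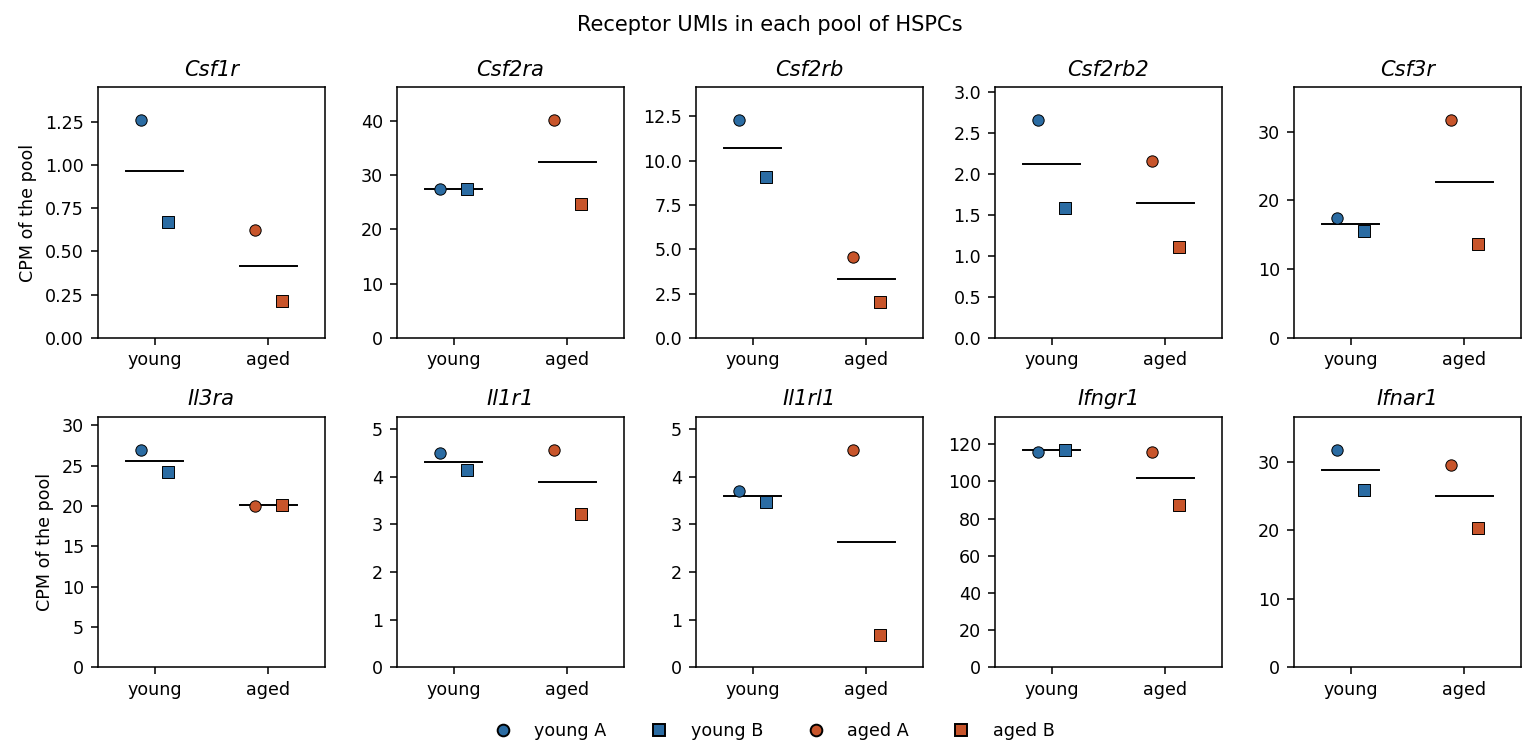
CPM of each receptor gene (y axis, linear, from 0) in the young and aged pools, with circles for pool A (HalioDX), squares for pool B (TGML) and a line at the mean of each age. The aged points of Csf2rb, at 4.57 and 2.04 CPM, lie below the young points at 12.3 and 9.09, whereas Csf2ra, Csf3r, Il1r1 and Il1rl1 have the 2 aged pools on opposite sides of the young pools.

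The receptors for M-CSF and G-CSF gave no call. Csf1r had 46 and 11 UMIs in young A and B and 13 and 7 in aged A and B, which is 1.26, 0.671, 0.625 and 0.21 CPM. The aged pools were below the young ones, but the counts allow a log2 difference between -2.72 and 0.03 around -1.35 (edgeR adjusted p = 0.321). Csf3r (chr4:126024550-126044440, plus strand) was at 17.5 and 15.6 CPM in young and at 31.7 and 13.7 in aged pools. Aged A was above and aged B below both young pools, and the difference was 0.29 (95% interval -0.38 to 0.97, edgeR adjusted p = 0.687).

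The promoter of Csf3r is printed because its class means, described further on, fell into a higher and a lower group. Capitals mark GAGGAA, the core letters of PU.1 sites, searched on both strands and found in 28.3% of the 32851 RefSeq promoters of the same length. The window runs from 250 bases before to 50 after the start, at chr4:126024409-126024708, plus strand, GRCm38.p6.
Csf3r promoter: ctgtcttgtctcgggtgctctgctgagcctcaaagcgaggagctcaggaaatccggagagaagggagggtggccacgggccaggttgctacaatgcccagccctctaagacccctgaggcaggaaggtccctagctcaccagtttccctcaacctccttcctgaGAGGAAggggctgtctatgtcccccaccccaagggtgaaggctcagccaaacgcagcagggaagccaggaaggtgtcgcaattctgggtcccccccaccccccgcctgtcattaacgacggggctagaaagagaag
The match starts 86 bases before the start site.

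Among the IL-1 family receptors, Il1r1 (chr1:40225080-40317257) was at 4.50 and 4.15 CPM in young and 4.57 and 3.21 in aged pools, overlapping ages with a log2 difference of -0.22 (95% interval -0.85 to 0.41). Il1rl1, which lies 112312 bases further on the same strand (chr1:40429570-40465415), was at 3.70 and 3.48 CPM in young pools, at 4.57 in aged A and at 0.691 in aged B. The low value rested on 23 UMIs of aged B, and the estimate of -0.93 had an interval of -2.57 to 0.71 (edgeR adjusted p = 0.588). Without aged B it turned to 0.13.

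Il1rl1 has 2 promoter windows in RefSeq, shown because the gene was counted most in the pMast-like and pEr-like classes, both known for GATA factors. Capitals mark AGATAA for GATA factors (in 11.2% of promoters), TTGCNNAA for C/EBP (10.8%) and GAGGAA for PU.1, on either strand. The windows are chr1:40429320-40429619 and chr1:40439379-40439678, plus strand, GRCm38.p6.
Il1rl1 distal promoter: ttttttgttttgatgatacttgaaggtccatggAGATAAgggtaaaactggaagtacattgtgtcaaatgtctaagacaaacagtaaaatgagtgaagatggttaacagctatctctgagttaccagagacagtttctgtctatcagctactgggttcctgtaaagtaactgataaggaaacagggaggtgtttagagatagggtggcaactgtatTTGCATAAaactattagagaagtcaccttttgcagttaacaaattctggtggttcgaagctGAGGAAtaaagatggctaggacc
Il1rl1 proximal promoter: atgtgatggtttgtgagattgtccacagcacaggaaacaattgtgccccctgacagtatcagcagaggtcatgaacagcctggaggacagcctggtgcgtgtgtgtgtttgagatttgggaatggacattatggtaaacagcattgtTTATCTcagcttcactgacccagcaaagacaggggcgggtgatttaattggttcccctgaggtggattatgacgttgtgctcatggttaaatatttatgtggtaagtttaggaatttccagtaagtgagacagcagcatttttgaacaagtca
The distal window holds AGATAA, 217 bases before the start, TTGCATAA, 34 bases before it, and GAGGAA, which begins at base 28 after it, and the proximal window holds 1 reverse GATA match, TTATCT, at 103 bases before. No match overlaps another, and a match is a description of letters, not of binding. Of the other members, Csf2ra, Csf2rb2 and Ifnar1 held GAGGAA, and Csf2rb2 and Ifnar1 also held TTCNNNGAA (STAT, 8.3% of promoters). Il3ra and a window of Il1r1 held TTGCNNAA, and Ifngr1 held none of the motifs.

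Of the interferon receptors, Ifngr1 (chr10:19591949-19610229) was at 116 and 117 CPM in young and at 116 and 87.2 in aged pools, so that aged A matched the young pools and aged B lay below. Ifnar1 (chr16:91485238-91507441) was at 31.8 and 25.9 CPM in young and 29.6 and 20.3 in aged pools. Their log2 differences of -0.27 (95% interval -0.71 to 0.18) and -0.28 (95% interval -0.68 to 0.13) were not called by edgeR, with adjusted p of 0.563 and 0.509. The median estimate of the 10 receptors was -0.34 against 0.01 for all genes tested, and 1 receptor, Csf2rb, had an unadjusted p under 0.05 by edgeR. Il1r1 and Il1rl1 were below 0 on platform B only, with differences in log2(CPM + 1) of 0.02 and 0.24 on A and -0.29 and -1.4 on B.

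The share of cells with a Csf2rb UMI followed its level. It was 7.75% in young A (95% exact binomial interval 7.03 to 8.51) and 5.75% in young B (4.82 to 6.79), against 2.70% in aged A (2.18 to 3.31) and 1.44% in aged B (1.10 to 1.86). With every cell thinned to 3000 UMIs, which left out 50, 176 and 4 shallower cells of young B, aged A and aged B, the shares were 3.76, 2.51, 1.33 and 0.675%. Positive cells carried 1.06 to 1.16 UMIs on average in every pool, a value that sparse counts hold near 1. Shares did not overlap between ages for 5 of the 10 receptors (Csf1r, Csf2rb, Il3ra, Il1r1 and Ifngr1), as for 30.1% of all genes tested, and after thinning for 3 (Csf2rb, Il3ra and Ifngr1), as for 29.6%. In the pEr-like cells, where the level was low at a median of 6874 UMIs per cell, 3.49% of cells had a Csf2rb UMI. Both aged pool shares lay under that value, as did the share in cluster 0, at 2.51%. The part of background in shares this low was not tested.

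Cells with UMIs of both chains of a receptor were rare. Csf2ra and Csf2rb were seen together in 77, 20, 14 and 15 cells of young A, young B, aged A and aged B, or 1.48, 0.891, 0.421 and 0.361%. Il3ra with Csf2rb was seen in 2.08, 1.52, 0.571 and 0.385%. Both pairs hold Csf2rb, so they repeat its difference. Ifngr1 and Ifngr2 were seen together in 9.19, 3.74, 5.53 and 4.74% of cells, and Ifnar1 with Ifnar2 in 5.95, 6.28, 4.75 and 3.95%. Il1r1 with Il1rap was seen in 8, 2, 2 and 1 cells.

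Which cells carried the receptors is shown next, as means over the 4 pools, with no test between classes. Neighbouring classes are said to differ only where the ranges of their pools do not overlap. Csf2rb was counted most in pMast-like cells, at 69.9 ± 19.2 CPM (SD, n = 4 pools), where 42.9% of 196 cells had a UMI at a median of 7117 UMIs per cell. pNeu-like cells followed at 18.2 ± 5.12 CPM, and their range of 12.7 to 24.7 overlapped that of cluster 1. From there to div-like cells, at 3.85 CPM, each class overlapped the next.

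Csf2rb2 and Il3ra were highest in the same pMast-like cells. Csf2rb2 reached 22.1 ± 10.5 CPM there against 5.46 or less in every other class. Il3ra was at 169 and 178 CPM in the pMast-like cells of young A and B and at 123 and 201 in those of aged A and B, and 64.3% of these cells had a UMI. In pNeu-like cells it was at 48.7 ± 7.96 CPM, which overlapped neither the pMast-like class nor ifn-like cells at 25, and it ran down to 16.1 CPM in cluster 0. Csf2ra was not tied to a class in this way, since its means ran from 34.9 CPM in cluster 4 to 18.6 in pMast-like cells and each class overlapped the next. The IL-3 alpha chain and the shared beta chain were thus both highest in pMast-like cells, where the GM-CSF alpha chain had its lowest mean.

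**Figure D2:**
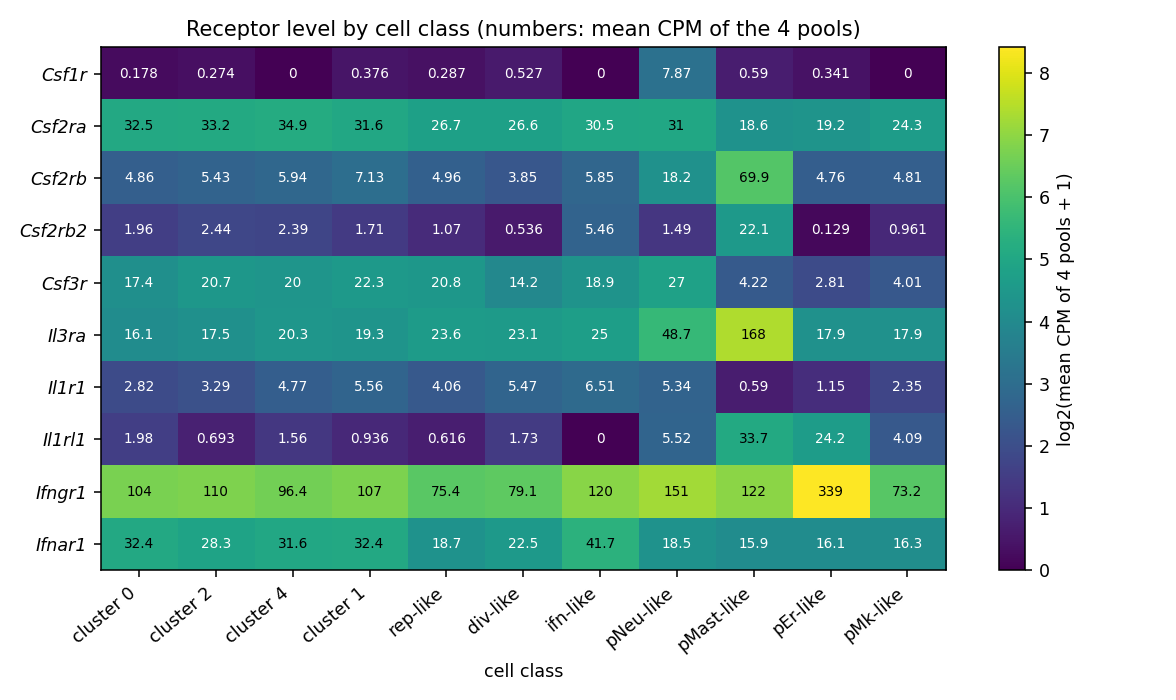
Mean CPM over the 4 pools of each receptor gene (rows) in the 11 cell classes (columns), printed in each cell and coloured as log2(mean CPM + 1). Csf2rb, Csf2rb2, Il3ra and Il1rl1 peak in the pMast-like class, at 69.9, 22.1, 168 and 33.7 CPM, Csf1r in the pNeu-like class at 7.87 and Ifngr1 in the pEr-like class at 339.

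Csf1r was counted mostly in pNeu-like cells. They held 39 UMIs, 50.6% of all, at 7.87 ± 3.50 CPM. Among the 11 classes, their range of 3.45 to 11.5 lay above that of the next class, pMast-like cells at 0.59. Outside the 11 classes, pL1-like cells had more Csf1r CPM than pNeu-like cells in young B, aged A and aged B, from 4, 1 and 1 UMIs. No UMI was seen in 1262 cluster 4, 343 pMk-like and 202 ifn-like cells, which allows shares of up to 0.238, 0.875 and 1.49% of cells with a UMI. Among the 11 classes, Csf3r was highest in pNeu-like cells as well, at 27.0 ± 13.3 CPM, but it overlapped the next 7 classes in turn down to div-like cells at 14.2. The means of pMast-like, pMk-like and pEr-like cells were lower, at 4.22, 4.01 and 2.81 CPM. The range of pMast-like cells, 0 to 8.82, lay below that of div-like cells, from 10.9, but overlapped that of cluster 4, from 7.85. In pEr-like cells 2.62% had a Csf3r UMI against 23.2% of pNeu-like cells, at medians of 6874 and 8652 UMIs.

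Among the 11 classes, Il1rl1 was highest in pMast-like cells at 33.7 ± 10.7 CPM, with pEr-like cells at 24.2 ± 8.63, and those classes overlapped. The next class, pNeu-like cells at 5.52, did not reach them. The pEr-like cells gave 94 of its UMIs, 46, 17, 25 and 6 in young A, young B, aged A and aged B. No UMI was seen in ifn-like cells, a limit of 1.49%. Il1r1 was low throughout, from 6.51 CPM in ifn-like to 0.59 in pMast-like cells, with each class overlapping the next, and its accessory chain Il1rap ran from 6.02 in pNeu-like to 1.51 in ifn-like cells.

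Ifngr1 was highest in pEr-like cells in each pool, at 361 and 367 CPM in young A and B and 365 and 263 in aged A and B, and 85.6% of these cells had a UMI. The pNeu-like class followed at 151 ± 16 CPM with no overlap. Rep-like, div-like and pMk-like cells formed a low group at 73.2 to 79.1 CPM below cluster 4 at 96.4. That order holds per UMI only. At medians of 9179, 11574.5 and 8737 UMIs per cell, 49.3, 53.6 and 45.5% of these cells had an Ifngr1 UMI. In cluster 4 it was 41.8% at a median of 5317. Ifngr2, the partner of Ifngr1, did not share the peak, with 9.11 CPM in pEr-like and 24.1 in pNeu-like cells. Ifnar1 was at 41.7 ± 22.8 CPM in ifn-like cells, which carry the interferon-induced genes Ifit1 and Isg15, and ran down to 15.9 in pMast-like cells with each class overlapping the next. In those ifn-like cells Ifnar1 was at 71.3, 42.8, 36.5 and 16.1 CPM in young A, young B, aged A and aged B, from 26, 10, 11 and 6 UMIs.

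**Figure D3:**
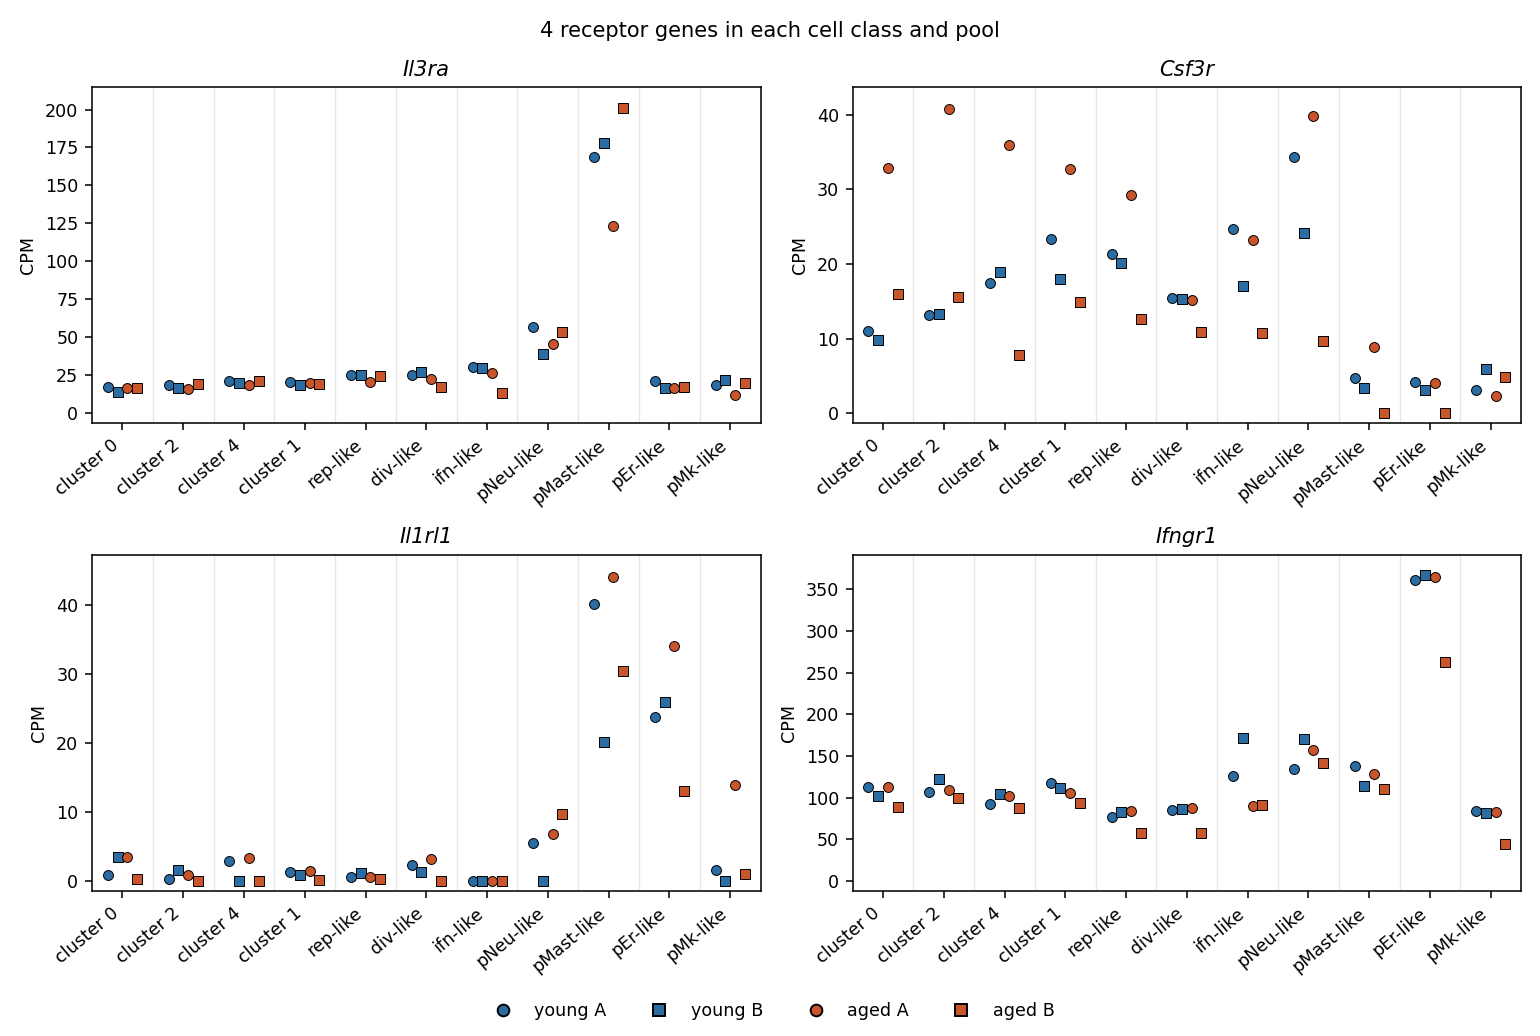
CPM (y axes, linear) of Il3ra, Csf3r, Il1rl1 and Ifngr1 in 11 cell classes, with 1 point per pool (blue young, orange aged, circles pool A, squares pool B). Il3ra and Ifngr1 stand out in pMast-like and pEr-like cells in all 4 pools, and the Csf3r points of aged A, at 32.9 CPM in cluster 0 and 40.8 in cluster 2, lie above the other pools.

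Genes with a class pattern like that of each receptor were ranked by Pearson's r of log2(CPM + 1) over 44 sums (11 classes in 4 pools, which share libraries and depth), as a description. Csf2rb was most like Fcer1g, the Fc receptor gamma chain (r = 0.886), the tyrosine kinase gene Fes and the NADPH oxidase subunit gene Ncf1. Il3ra was most like Cyp11a1, a steroid-synthesis enzyme (r = 0.943), Lilrb4a and Tmem156. Csf1r went with Ly86 (r = 0.879), Chdh and F13a1, and Csf3r with Appl2 (r = 0.847), Plppr3 and Fkbp1a. Il1rl1 was closest to St8sia6 (r = 0.899), Gm17590 and BC021614, and Csf2rb2 to Csf1, Rab19 and Fam129a, with r = 0.872 for the M-CSF gene Csf1. For Ifngr1 these were Gadd45a (r = 0.845), D930028M14Rik and Asb17os, for Ifnar1 Il16 (r = 0.842), Pvrl4 and Gcnt2, for Csf2ra Mib1 (r = 0.846), Jmjd8 and Zscan26, and for Il1r1 Kif17 (r = 0.772), C230035I16Rik and Gm7694. Among the receptors themselves Csf2rb and Il3ra had r = 0.744, and Csf3r and Il1rl1 had r = -0.553.

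Age was then compared within the classes. edgeR called 1.13, 1.08, 0.68 and 3.58% of all genes tested in clusters 0, 1, 2 and 4, 0.819% in rep-like, 0.407% in div-like, 0.875% in ifn-like and 0.657% in pMk-like cells, and 0% in pNeu-like, pMast-like and pEr-like cells, where 240, 120 and 176 genes had an unadjusted p under 0.05. Csf2rb was lower in aged cells in all 8 classes that passed edgeR's count filter, by -0.13 in pNeu-like to -2.75 in cluster 1 on the log2 scale. DESeq2 tested it in 11 classes and found it lower in 10, with pEr-like cells at 0.17. In cluster 4 it was at 13.1 and 7.34 CPM in young A and B, at 3.35 in aged A and with no UMI in the 172 cells of aged B, which allows a share of up to 1.74%. Csf2rb was called there by edgeR (log2 difference -2.47, SE 0.673, edgeR adjusted p = 0.0317, 3.58% of genes tested called). DESeq2 gave Csf2rb a log2 difference of -3.18 in cluster 4 and did not call it. In cluster 1 it was at 13.6 and 10.6 CPM in young against 3.51 and 0.762 in aged pools, which edgeR left at an adjusted p of 0.0834, where 1.08% of genes were called, and DESeq2 called at 0.0287, where 1.26% were. Rep-like cells, at 9.30 and 6.80 against 2.51 and 1.23 CPM, gave -2.23 with an edgeR adjusted p of 0.0923.

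No other receptor was called in any class by edgeR or DESeq2, with 5 of the tests at an unadjusted p under 0.05 by edgeR. By edgeR, Csf3r had 4 of 7 tested classes above 0, with 11 and 9.74 CPM in young and 32.9 and 16 in aged pools of cluster 0 (1.17, 95% interval 0.51 to 1.83, adjusted p = 0.146). Ifngr1 was below 0 in 11 of 11 classes tested and Ifnar1 in 10 of 10, with estimates down to -0.66 and -1.09 in ifn-like cells and no call. On platform A, Ifngr1 was lower in log2(CPM + 1) only in ifn-like cells (-0.49), cluster 1 (-0.15) and pMast-like cells (-0.11). Its other classes there stood at 0 or above, up to 0.22 in pNeu-like cells, whereas every class was below 0 on B. Among its tested classes, Ifnar1 was above 0 only in pEr-like cells on A (0.12). Il3ra was below 0 in 9 of 10 classes, between -0.47 and 0.03. In those 10 classes it was lower throughout on A, but on B only in div-like (-0.63), pMk-like (-0.09) and rep-like cells (-0.04). All classes come from the same 4 pools, so their signs are not independent. How often other genes keep a single sign across classes was not tested. Csf1r reached the count minimum in no class.

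**Figure D4:**
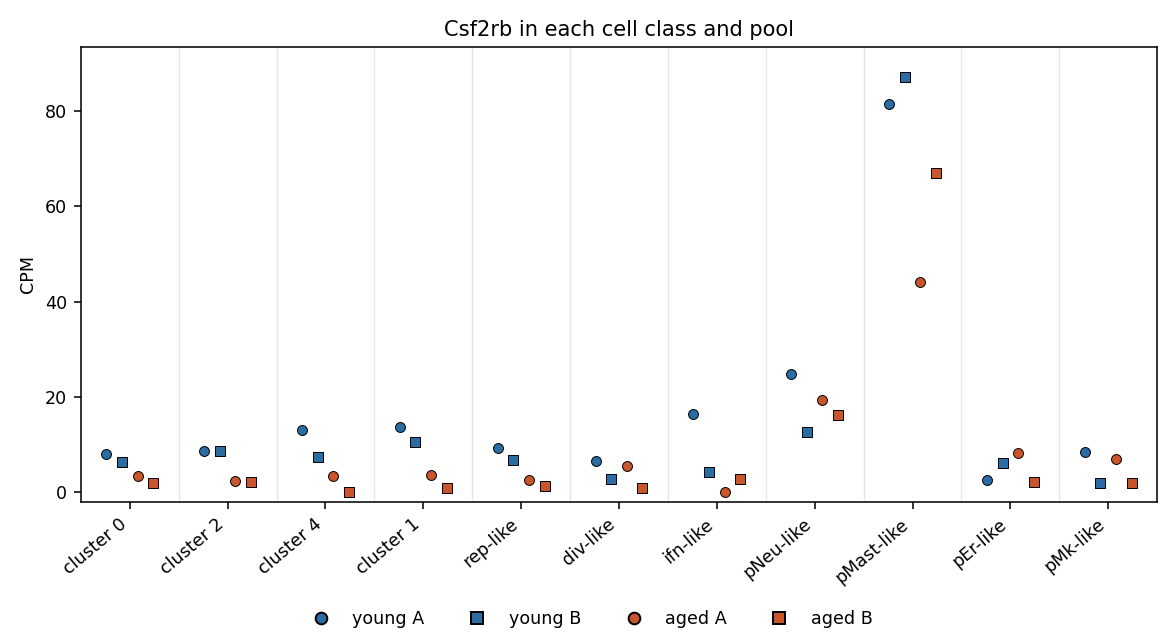
CPM of Csf2rb (y axis, linear) in 11 cell classes with 1 point per pool (blue young, orange aged, circles pool A, squares pool B). Both aged points lie below both young points in clusters 0, 1, 2 and 4, rep-like, ifn-like and pMast-like cells, and the ages overlap in pNeu-like, pEr-like, pMk-like and div-like cells.

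The pNeu-like and pMast-like cells were next joined as myeloid-primed cells and set against all others. They were 335, 132, 113 and 81 cells in young A, young B, aged A and aged B, or 6.46, 5.88, 3.40 and 1.95% of the pool. In them Csf2rb was at 40.6 and 31.7 CPM in young and 25.2 and 26.8 in aged pools. The log2 difference was -0.54 (95% interval -1.25 to 0.18), and edgeR called 0 of 7586 genes in these cells (236 at an unadjusted p under 0.05). In all other cells Csf2rb was at 9.73 and 7.35 CPM in young and 3.58 and 1.45 in aged pools, a difference of -1.92 (95% interval -2.64 to -1.19, edgeR adjusted p = 0.0651 with 1.43% of genes called). Myeloid-primed cells gave 27.5, 24.8, 25.3 and 30.9% of the Csf2rb UMIs of the 4 pools.

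The age difference of Csf2rb itself differed between the groups of cells. The term for myeloid-primed minus other cells was 1.31 on the log2 scale (SE 0.384, 95% interval 0.55 to 2.06, edgeR adjusted p = 0.0306), where 2.55% of 12644 genes were called. Of the other 9 receptors none was called, the nearest being Csf3r at -0.73 (95% interval -1.37 to -0.09, adjusted p = 0.321). The call was lost without young A, young B or aged B. The Csf2rb term was 1.30 without young A, 1.30 without young B and 0.76 without aged B, with edgeR adjusted p of 0.298, 0.19 and 0.608. It stayed called without aged A, at 2.08 (adjusted p = 0.00457).

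Genes that define the myeloid-primed cells were also counted outside them. The basophil protease Mcpt8 gave 367 to 689 UMIs per Csf2rb UMI in pMast-like cells and 3.15 to 17 in the cells outside both classes. Elane gave 67.5 to 276 UMIs per Csf2rb UMI in pNeu-like cells and 1.55 to 7.69 outside. Outside both classes Mcpt8 was at 72.1 and 23.2 CPM in young and 60.8 and 9.11 in aged pools, lower in aged cells on both platforms, as Csf2rb was. Cpa3 was likewise lower on both, at 29.9 and 19.7 against 27.5 and 5.75 CPM, and Elane, at 17.4 and 12.7 against 27.5 and 2.25, was higher in aged A and lower in aged B. The part of free RNA from these cells in the Csf2rb difference was not tested.

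**Figure D5:**
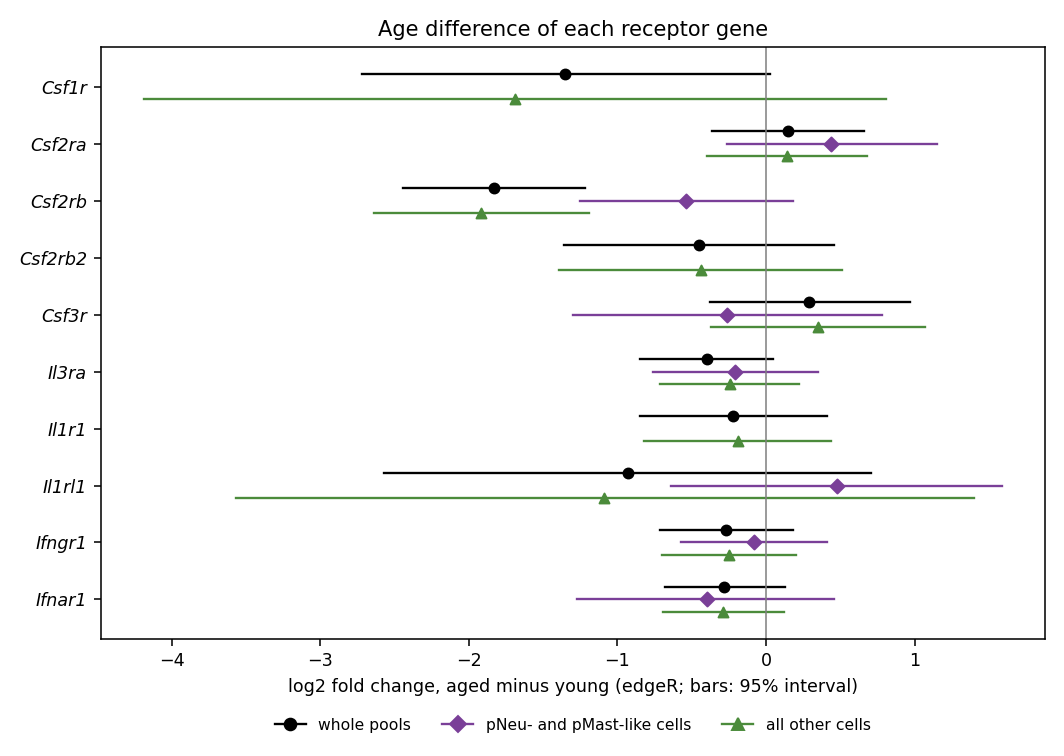
Log2 fold change of aged minus young (x axis, edgeR) for each receptor gene, with 95% intervals, in whole pools (black), in pNeu- and pMast-like cells (purple) and in all other cells (green). Csf2rb lies at -1.83 in whole pools and -1.92 in other cells but at -0.54 in the pNeu- and pMast-like cells, and 3 genes lack a purple point because they fell under the count minimum.

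Partner chains, related receptor chains and downstream genes were mostly not called, where edgeR called 2.03% of all genes tested over whole pools. A list of 9 chains held partners of the receptors, such as Il1rap, Ifngr2 and Ifnar2, and related chains that are not partners. Of the 9, 8 were tested with edgeR and 0 called (2 at an unadjusted p under 0.05, 0 by DESeq2). The median log2 difference of this mixed list was -0.15 against 0.01 for all genes. The largest differences were in related chains, with the IL-18 receptor Il18r1 at -1.01, the decoy Il1r2 at -0.72 and Il6st at 0.60. The partners Il1rap, Ifngr2 and Ifnar2 were at 0.1, -0.19 and -0.36. Of 10 ligand genes only Csf1 (0.53) and Il1b (0.38) had enough UMIs and 0 were called by edgeR or DESeq2 (0 at an unadjusted p under 0.05), and Csf3, Il3 and Ifnb1 had none in 14915 cells, a limit of 0.0201%. The 10 JAK-STAT genes, at a median of 0.07, gave 0 calls by edgeR and DESeq2 (1 at an unadjusted p under 0.05), with Stat3 at 0.31 and Jak2 at 0.29, and the 10 genes of IL-1 signalling, at a median of -0.12, gave 0 by both tools (0 unadjusted), with Nfkbia at 0.52, Irak2 at -0.39 and Myd88 at 0.34.

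Among 11 feedback inhibitors, 10 were tested and 1 was called, at a median of -0.01. For this list and those that follow, the share called over all genes tested was 2.03%. Socs3, an inhibitor of JAK signalling, was at 5.13 and 3.84 CPM in young and at 58.3 and 15.8 in aged pools and rose by 2.76 (SE 0.362, edgeR adjusted p = 0.0369). Socs2 at -1.77 was called by DESeq2 alone, and Socs1 at 1.04 by neither. Of 16 other cytokine receptors, 15 were tested (median 0.03) and Flt3, a gene of the sort gate, was called as lower (-2.46, edgeR adjusted p = 0.0141), with Il7r at -1.27 and Cxcr2 at -1.08 not called. Mature myeloid cells, which the gate should remove, were looked for with a list of 12 genes. Their summed level was 395 and 481 CPM in young and 436 and 494 in aged pools, mostly Lyz2, and 8 were tested (median -0.58), with Adgre1, Ngp, Camp and Ltf at 0.44 CPM or less. Ms4a6c fell by 1.40 (edgeR adjusted p = 0.0376), from 49.4 and 53.0 to 23.7 and 17.0 CPM, while Itgam at -1.26 and Ccr2 at -1.06 were not called. The part of such cells in the Csf2rb difference was not tested.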

How the data were processed

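Single-cell libraries (10x Genomics, 3' chemistry) were made from 4 pools. The deposited matrices hold whole UMI counts per gene and barcode, which the authors made with Cell Ranger 2.2.0 (builds mm10 and GRCm38.p4 in the submitters' processing notes), with no normalization. Barcodes whose log UMI count lay within 2 SD of the average in the same pool were kept, as in the authors' filter, and no doublet caller was run. Cells were clustered with Seurat 5.3.0 on the 2000 most variable genes, less 3 receptor genes among them, after integration of the pools and regression of cyclone scores (scran 1.30.0), with 15 components at resolution 0.5. A class took a marker list's name where at least 3 markers had a log2 fold of at least 1 and were seen in at least 10% of cells, at least 1 of them among the top 10 genes.

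UMIs were summed per pool or per pool and class. Ages were compared with edgeR 4.0.16 (quasi-likelihood, TMM, filterByExpr) with platform as a term, and the class by age term with pool as a block. P-values were adjusted by Benjamini-Hochberg over all genes tested and called under 0.05, two-sided. Intervals use the fit's own degrees of freedom, which include those borrowed from other genes. P-values measure the spread between these pools of mice as the fit estimates it, with information shared across genes. So few pools leave few degrees of freedom for the spread of a single gene. The Csf2rb calls over whole pools, in cluster 4 and in the class by age test thus rest largely on that sharing, not on spread seen between pools for Csf2rb alone. DESeq2 1.42.0 was an alternative. The platform term comes from the labels, and differences of pool A from pool B correlated between the ages (r = 0.576 over 13555 genes). CPM was taken over all UMIs of the pool or class. Genes named are the 10 receptors, each list's called genes and 3 largest differences, and each receptor's 3 most alike genes. One gene under this rule is not reported here. The members, lists and tests were chosen with earlier results of these data known. Promoters are from RefSeq, from which windows of 8 of the 10 receptors were used, and gene positions from GENCODE M21, which held 98.8% of the gene IDs. The scripts were tested on simulated data.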

Additional observations from a re-analysis of the deposited data

Results flagged for a closer look

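The age difference of Csf2rb differed between groups of cells by a test of the difference itself. In pNeu- and pMast-like cells its log2 difference was -0.54 and in all other cells -1.92, and the term for myeloid-primed minus other cells was 1.31 (edgeR adjusted p = 0.0306). That call was lost with no pool block (adjusted p = 1) and without young A, young B or aged B (adjusted p of 0.298, 0.19 and 0.608), and the term ran from 0.76 to 2.08 with 1 pool left out. Neither group of cells had aged pools that overlapped the young ones. Among the other cells, the ages overlapped in the pEr-like, pMk-like and div-like classes. Myeloid-primed cells made up 6.46 and 5.88% of the young and 3.40 and 1.95% of the aged pools, and the part of this in the difference was not tested. Groups of 2 pools are too small to look for samples that stand apart.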

How the results depend on the processing

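With no replicate block, in place of the pairing by platform, the number of receptors called was 0 over whole pools and 0 within classes, and with no pool block the class by age test called 0. With a single pool left out, 0 receptors were called over whole pools whichever pool it was, in fits that called 0 to 287 of all genes, 0 to 1 within classes (Csf2rb in cluster 1 without young B) and 0 to 2 in the class by age test, where Il1rl1 joined Csf2rb without aged A. Estimates that were not called changed sign in such fits, with a range of -0.04 (without aged A) to 0.33 for Csf2ra, -0.16 (without aged A) to 0.72 for Csf3r and -2.26 to 0.13 (without aged B) for Il1rl1. DESeq2, RLE size factors, no filter on low counts, all barcodes, leaving out the 5% of cells with most UMIs, thinning to 3000 UMIs and, chosen after seeing the data, the sum of Csf2rb and Csf2rb2 each called 1 receptor. The count over all genes moved from 275 to 528 with DESeq2, 774 with no filter and 563 without the cells with most UMIs. Within classes, resolution 0.3 called Csf2rb in 2 classes and resolution 0.8 in 0, although it was lower in aged cells in 8 of 8 and 9 of 9 classes tested. Without young A it was lower in 6 of 7 classes tested, and with any other pool left out in all classes tested. Of the 9 receptors highest in a named class, that class stayed the highest for 6 at resolution 0.3, 9 at resolution 0.8 and 4 with no integration. Resolution 0.3 gave no pEr-like or ifn-like class, so Ifngr1, Il1r1 and Ifnar1 could not keep theirs. With no integration there was no pNeu-like or ifn-like class, so Csf1r, Csf3r, Il1r1 and Ifnar1 could not either. Il1rl1 moved from pMast-like to pL2-like cells there, although a pMast-like class was present. Shares of cells did not overlap between ages for 5 receptors as counted (30.1% of all genes) and for 3 after thinning (29.6%). For the altered fits within classes and of class by age, calls over all genes were not counted. Their receptor counts thus cannot be set against a general rate. For the other changes the cause was not tested.

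Each age had 2 pools, and Csf1r, Csf2rb2, Il1r1 and Il1rl1 had under 200 UMIs in every pool, which limits the precision of their estimates. The 24 to 104 pMast-like cells in a pool limit the age comparison within them. Doublets were not called, and free RNA was not removed.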

Other observations

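Some UMIs of these receptors came from clusters with too few cells in a pool to be compared. The 64 pL1-like cells, led by Xcl1 and Cd7, gave 24 of the Il1rl1 UMIs (7.74%), 7 of those of Csf1r (9.09%), 21 of those of Il3ra and 77 of those of Ifngr1. In the 25, 21, 14 and 4 of these cells in young A, young B, aged A and aged B, Il1rl1 was at 32.9, 111, 134 and 0 CPM, from 5, 12, 7 and 0 UMIs, and Csf1r was at 6.58, 37, 19.1 and 29.8 CPM, from 1, 4, 1 and 1 UMIs. Ifnar1 in these pL1-like cells was at 65.8, 55.6, 153 and 59.6 CPM, from 10, 6, 8 and 2 UMIs, in the same order of pools. The 228 tgf-like cells, led by Nr4a1 and Hes1, gave 199 Ifngr1 and 10 Csf2rb UMIs. In them Csf3r was at 17.6, 27.4, 56.5 and 11.2 CPM in young A, young B, aged A and aged B, from 7, 1, 47 and 3 UMIs. These are values of single clusters, with no comparison between ages.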
